A study of Homo sapiens with 12 samples.

Results

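Doxorubicin-treated U2OS cells were compared with untreated U2OS cells across the genes measured by a 3' expression array. U2OS is an established human osteosarcoma line, and the labels state that it expresses its own wild-type p53. The comparison rests on 6 of the 12 arrays of the series. Of these, 3 held cells given 0.6 µg/ml doxorubicin for 24 h and 3 held cells given no treatment, which the labels name as the control for doxorubicin at 24 h. The other 6 arrays, 3 of cells given 10 µM nutlin-3 and 3 of cells given 0.1% DMSO for 24 h, served to estimate the spread and to test where the doxorubicin response differed from that of a second agent with its own control. All groups are the same line, so the values describe 1 line at 1 dose and 1 time. Nothing in the labels tells separate cultures from repeat wells or extracts, so the spread behind each p-value may be technical. The members are every probe set of the array other than its controls, 54613 of 54675, and the gene-level values use 1 probe set for each of 13673 genes.

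Doxorubicin is an anthracycline that intercalates into DNA and traps topoisomerase II on it, which leaves double-strand breaks and torsional stress in transcribed chromatin. Breaks activate the kinase ATM and, through it, p53, which raises genes of arrest and apoptosis, and mitotic genes then fall through the DREAM repressor complex. Nutlin-3 frees p53 from MDM2 without breaking DNA, so it raises p53 targets by a different route. The best known p53 targets are left aside here, apart from a reference list of feedback and arrest genes. Of its 15 tested members 14 rose, with a median log2 change of 1.50 (1.53 with nutlin-3).

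Values are linear array signals, and changes are differences of log2(signal + 16), so the change of a dim gene is understated. A gene is called when limma's adjusted p is under 0.05 over all 13673 genes, and "rose" or "fell" is written only of called genes. Of the genes tested, 4112 rose (30.1%) and 3504 fell (25.6%), 7616 in all (55.7%). The arrays of the groups did not overlap for 8056 genes (58.9%), and nutlin-3 against DMSO gave 3613 calls (26.4%). These shares are the background for every list that follows. Rises reached further than falls: 70 genes rose at least 8-fold and 230 rose 4 to 8-fold, while 14 fell at least 8-fold and 86 fell 4 to 8-fold. At least 2-fold, 1373 genes rose (10.0%) and 884 fell (6.47%). Over all 54613 probe sets with no filter, 15967 were called (29.2%), 8525 higher (15.6%) and 7442 lower (13.6%). The median change of all genes was 0.08, and it was -0.10 with each array centred on its median. That scaling turned the split to 2733 higher and 4389 lower, so that higher calls made up 38.4% of calls and not 54.0%. Small changes are therefore read against the median of all genes. The choice of control mattered for single genes: of 153 called genes named here, 29 had a change that moved by over 1.5-fold when the DMSO arrays stood in for the untreated arrays, and 26 of these were still called in the same direction. The exceptions were *CD274*, *KRT14* and *PDGFC*, and the value against DMSO is given beside other genes whose change became much smaller.

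**Figure D1:**
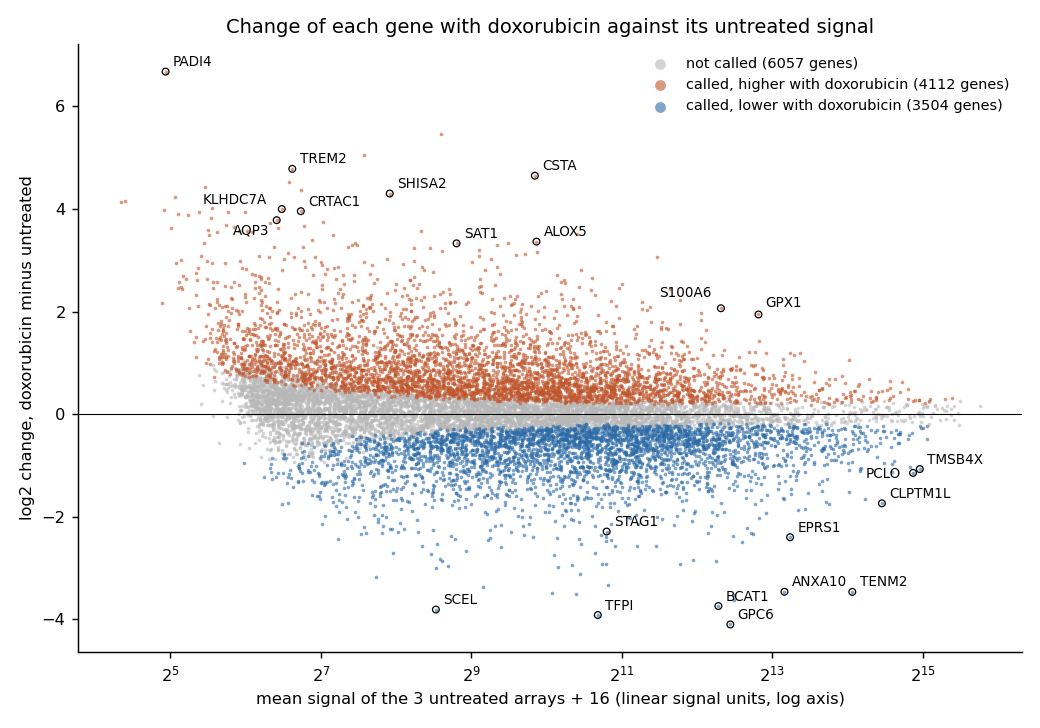
Log2 change of each of 13673 genes with doxorubicin (vertical axis) against its mean untreated signal plus 16 (horizontal log axis), with 4112 genes called higher, 3504 called lower and 6057 not called. *PADI4* and *TREM2* rose from low untreated signals, while *TENM2* and *ANXA10* fell from high ones.

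The cells carried osteoblast lineage transcripts in both groups. *COL1A1*, the main bone collagen chain, had untreated signals of 31189, 26694 and 31953, and *SPARC*, a bone matrix protein, had 22440, 19738 and 21714. *RUNX2*, the osteoblast master regulator, was measured at 1398, 1786 and 1699, whereas *SP7*, *ALPL*, *IBSP* and *COL1A2* were under the filter on dim signals. The summed signal of the 9 osteoblast markers on the array was 49069 to 56205 untreated and 56640 to 62807 with doxorubicin. Of the 5 tested markers 1 rose and 2 fell, with changes from -0.77 to 0.50. The sign of the *COL1A1* change depended on the choice of probe set. Several markers of leukocytes (*PTPRC*, *CD14*), endothelium (*CDH5*, *VWF*, *KDR*), hepatocytes (*ALB*, *APOA1*, *TTR*) and muscle (*MYOG*) were under that filter. Other members passed it, 4 of 7 leukocyte, 3 of 6 endothelial and 3 of 4 muscle markers on the array. All 5 neuron markers passed, with sums of 15829 to 17938 untreated and 17651 to 20797 with doxorubicin. Of these 5, 2 rose, 1 of them from an untreated mean under the filter. The leukocyte list summed higher with doxorubicin, 982 to 1307 against 474 to 532, and in it *LAPTM5* rose by 2.35 and *CORO1A* by 0.68. The epithelial and fibroblast sums were lower with doxorubicin, 19774 to 24642 against 27720 to 29006 and 2146 to 2514 against 3415 to 4757. The hepatocyte sum was higher, 2752 to 3384 against 1460 to 1575, and *SERPINA1*, its only tested member, rose by 0.98 (SE 0.10), with 0.32 and no call on a probe set of another type. In bulk RNA, fewer cells of a type and less RNA per cell cannot be told apart. Across genes the correlation was 0.98 to 0.985 between arrays of 1 group and 0.907 to 0.919 between untreated and doxorubicin arrays. The ratio of 3' to 5' signal of the *ACTB* control probe sets, which rises as RNA or its copies shorten, was 2.48, 3.29 and 3.59 with doxorubicin and 1.44, 1.57 and 1.58 untreated. The groups do not overlap, and the exact 2-sided permutation test gives p = 0.1, the smallest that 3 arrays against 3 allow. The same ratio for *GAPDH* was 1.07 ± 0.116 against 1.02 ± 0.0356 (SD, n = 3, exact permutation p = 0.6). For the spiked control *dap*, added to the RNA before labelling, it was 3.47, 5.41 and 8.51 with doxorubicin and 2.40, 2.92 and 2.82 untreated, again with no overlap (exact permutation p = 0.1).

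The genes with the largest rises from a measurable untreated level are not of 1 pathway. *CSTA*, the protease inhibitor cystatin A, had signals of 1044, 870 and 792 untreated and of 23241, 23515 and 21932 with doxorubicin. *SHISA2*, an endoplasmic reticulum protein that restrains WNT and FGF receptors, went from 218, 245 and 213 to 5262, 4031 and 4998. *KLHDC7A*, a kelch-domain protein gene, went from 99, 67.6 and 53.3 to 1091, 1420 and 1696. In each of these the lowest doxorubicin array lies far above the highest untreated array, but lack of overlap was a condition for choosing them. *CRTAC1*, a cartilage matrix protein, rose by 3.96 (SE 0.33), *AQP3*, a channel for water and glycerol, by 3.78 (SE 0.16), and *GABBR2*, a subunit of the GABA-B receptor, by 3.74 (SE 0.13). *ALPP*, the placental alkaline phosphatase, rose by 3.72 (SE 0.33), *ADCYAP1R1*, the receptor for the neuropeptide PACAP, by 3.63 (SE 0.19), and *CRISPLD2*, a secreted protein, by 3.58 (SE 0.16). *LRATD1* rose by 5.06 on its brightest probe set, while the value was 0.15 and not called on the probe set chosen when those of the _x_at and _s_at types were avoided. Rises that were large in signal units included *GPX1*, a glutathione peroxidase, which went from 6262, 8162 and 7129 to 24681, 27686 and 30453. *S100A6*, a calcium-binding protein, rose from 4285, 5465 and 5484 to 21708, 19357 and 22529.

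Large falls were seen in genes of the cell surface and in enzymes. *TENM2*, a teneurin that joins neighbouring cells, had 18406, 15705 and 17103 untreated and 1324, 1616 and 1663 with doxorubicin. *ANXA10*, an annexin, went from 9429, 9294 and 8667 to 791, 709 and 955. *INPP4B*, a phosphatase of phosphoinositides, went from 1753, 1860 and 1743 to 183, 122 and 195. In all 3 the arrays of the groups are far apart, and here too lack of overlap was a condition of the choice. Further falls were *NRXN3*, a neurexin, at -3.11 (SE 0.14), *DDR2*, a collagen receptor kinase, at -2.98 (SE 0.18), *TRIM16*, a ubiquitin ligase, at -2.94 (SE 0.11), *COL8A1*, a short-chain collagen, at -2.93 (SE 0.13), and *NEGR1*, an adhesion molecule of neurons, at -2.92 (SE 0.09). In signal units the largest falls included *TMSB4X*, the actin-binding peptide thymosin beta 4, from 28616, 33781 and 33013 to 13654, 14030 and 17925. *CLPTM1L*, a membrane protein, fell from 23892, 20631 and 22765 to 7168, 6150 and 6804. *PCLO*, a scaffold of synapses, fell from 29466, 29045 and 31115 to 11834, 14046 and 14759.

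**Figure D2:**
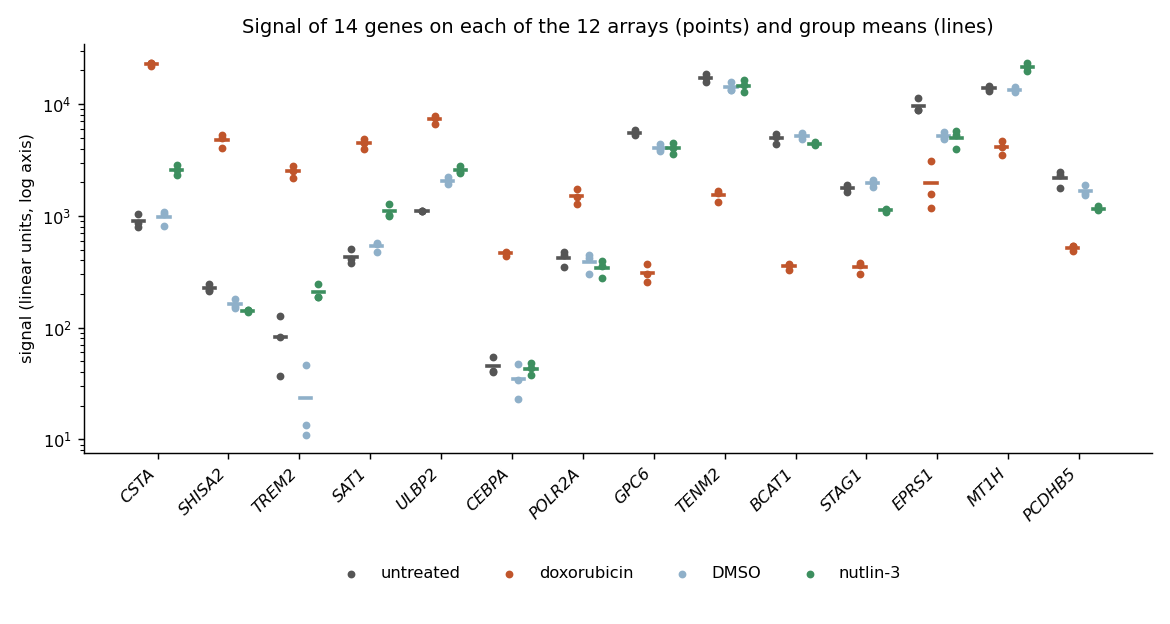
Signal (log axis) of 14 genes on each of the 12 arrays, as points coloured by group, with the group mean as a line. The 3 doxorubicin arrays stand apart from the 3 untreated arrays in every gene shown, which was a condition for genes chosen by the largest changes. For *SHISA2*, *CEBPA*, *POLR2A*, *GPC6*, *TENM2*, *BCAT1* and *EPRS1* the change from the DMSO to the nutlin-3 arrays was not called.

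Across classes of gene length, the longer the class, the lower was its median doxorubicin change. RNA polymerase II needs many hours to cross the longest genes, and topoisomerases relieve the twist it builds up. A length in the genome was found for 13658 of the 13673 genes tested (99.89%), from the RefSeq annotation of GRCh38.p14. Among 1580 genes under 5 kb the median log2 change was 0.24, with 560 rising and 253 falling. The median was 0.10 for 3569 genes of 20 to 50 kb, -0.09 for 1521 genes of 100 to 200 kb and -0.22 for 701 genes of 200 to 400 kb. Among 328 genes of 400 kb or more it was -0.60, with 39 rising and 186 falling, 109 of them at least 2-fold. With nutlin-3 the medians of the same length classes lay between -0.04 and 0.06. Against the DMSO arrays in place of the untreated arrays, the shortest class had a doxorubicin median of 0.27 and the longest -0.49.

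Of a list of 57 tested genes known to be very long, 42 fell, 31 of them at least 2-fold, and 6 rose (3 with quantile normalization, median centring, the 60th percentile filter or without untreated array 2). Their median was -1.12, against 0.08 for all genes and -0.60 for the 328 genes of 400 kb or more. The list was chosen with earlier results of these data known, and it holds some shorter genes, such as *EXT1* at 317 kb. Of its members 2 had an untreated mean under the filter on dim signals, and among the other 55, 42 fell and 5 rose. *GPC6*, a glypican that carries heparan sulfate, had 5537, 5278 and 5807 untreated and 371, 305 and 256 with doxorubicin. *PTPRG*, a receptor tyrosine phosphatase, went from 4185, 3770 and 3759 to 928, 766 and 1055. *UTRN*, the dystrophin relative utrophin, went from 3409, 3198 and 3573 to 811, 846 and 864. No array of these 3 genes overlaps between groups. *TENM3* fell by 2.92 (SE 0.15), *KCNQ5*, a potassium channel, by 2.17 (SE 0.13), *EXT1*, which polymerises heparan sulfate, by 1.74 (SE 0.10), *ROBO1*, a guidance receptor, by 1.64 (SE 0.07), and *FTO*, an RNA demethylase, by 0.97 (SE 0.09). The median with nutlin-3 was -0.01, and 40 of the 57 were lower with doxorubicin than with nutlin-3 in the test of the difference, against 17.7% of all genes. The exceptions were *THSD4*, a matrix protein of microfibrils, which rose by 2.00 (SE 0.18), and *CSMD3*, a giant membrane protein, which rose by 1.70 (SE 0.16) with doxorubicin and by 3.04 with nutlin-3. Among the 40 longest genes tested, 984 to 2474 kb, 22 fell and 6 rose. Their median of -0.53 was no lower than that of the class of 400 kb or more. Of these 40, *OPCML*, an adhesion molecule, rose by 2.27 (SE 0.31) with doxorubicin and by 2.30 with nutlin-3. The very long list's median relative to the untreated mean was -1.07, -1.01 and -1.07 on doxorubicin arrays 1, 2 and 3. The *ACTB* ratios of all 3 lay above those of the untreated arrays, so RNA quality and treatment cannot be told apart here. The part of RNA quality was not tested.

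**Figure D3:**
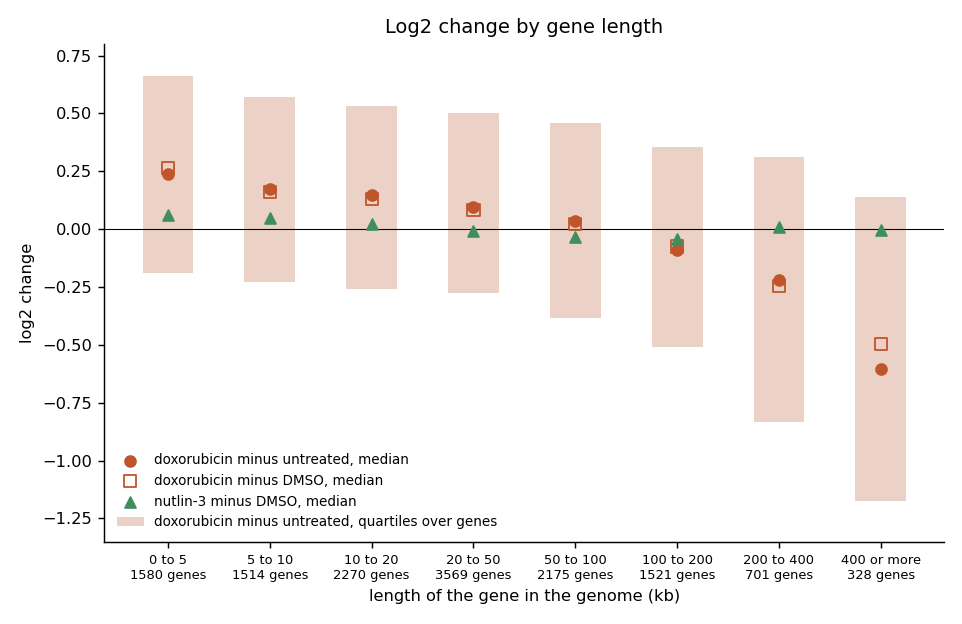
Median log2 change of genes in 8 classes of length in the genome, with doxorubicin against untreated arrays (filled circles, with quartiles over genes as bars), with doxorubicin against DMSO arrays (open squares), and with nutlin-3 against DMSO arrays (triangles). The doxorubicin median falls from 0.24 under 5 kb to -0.60 at 400 kb or more, and the nutlin-3 medians stay between -0.04 and 0.06.

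Short and short-lived regulators mostly rose. Of 40 tested genes of this kind, most of them transcription factors, RNA-binding proteins and signal brakes with few or no introns, 28 rose, 13 of them at least 2-fold, and 6 fell (3 without untreated array 2 or without doxorubicin array 1), with a median of 0.66. *CEBPA*, a factor of myeloid, fat and liver differentiation, was dim untreated at 54.4, 40.5 and 39.8 and had 476, 468 and 439 with doxorubicin. Its untreated mean is under the filter on dim signals. It passed through higher signals on other arrays, those with doxorubicin among them, so its rise is partly set by the filter. The size of its log2 change rests on the constant added to the signal. Among the 39 members with an untreated mean above the filter, 27 rose and 6 fell. *MAFF*, a small leucine zipper factor, went from 1421, 1634 and 1567 to 9657, 9909 and 9585, and *CEBPD* from 233, 247 and 229 to 1339, 1303 and 1361. The groups are well separated in each. *BTG1*, which slows growth through mRNA deadenylation, rose by 2.31 (SE 0.11) and *SERTAD1*, a cofactor of cyclin D and E2F, by 1.96 (SE 0.11). *ID1*, which blocks helix-loop-helix factors, fell by 0.66 (SE 0.09). With nutlin-3, 15 of the 40 rose and 5 fell, and 18 were higher with doxorubicin in the test of the difference (21.8% of all genes were). *CEBPA* and *CEBPD* had nutlin-3 changes of 0.24 and 0.34, neither called, and differed between agents by 2.73 (SE 0.34) and 2.08 (SE 0.24). The difference for *CEBPA* is limited by the filter in the same way as its doxorubicin change.

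Feedback brakes on the RAS-MAPK cascade, which dampen growth factor signals, rose more often than they fell. Of 42 tested members 21 rose and 1 fell, with a median of 0.36. With median centring 16 rose and 7 fell, and against the DMSO arrays 21 rose and 8 fell. *RGS16*, which switches off G proteins, had 89.2, 66.0 and 96.8 untreated and 804, 655 and 1019 with doxorubicin. *DUSP5*, a nuclear phosphatase of ERK, went from 224, 252 and 243 to 1601, 1379 and 1419, and *RGS2* from 357, 280 and 279 to 1677, 1349 and 1399. *RASAL2*, a RAS GTPase-activating protein, fell by 1.37 (SE 0.15) on its brightest probe set, but 1 of its probe sets was called higher. The ERK phosphatase *DUSP6* had a change of -0.15 and *SPRY4* of 0.43, neither called. Nutlin-3 gave 20 rises and 4 falls in this list.

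The ligands upstream of that cascade were split. Of 31 tested growth factor genes 12 rose and 8 fell. Of the risers 1 had an untreated mean under the filter on dim signals, and among the other 30 members 11 rose and 8 fell. *TGFA* and *EREG*, both ligands of the EGF receptor, rose by 3.18 (SE 0.12) and 3.57 (SE 0.31). *CSF1*, the macrophage growth factor, had 327, 263 and 356 untreated and 1787, 2456 and 2716 with doxorubicin, and *KITLG*, the ligand of KIT, rose by 2.10 (SE 0.09). *EGF* itself fell by 1.41 and *PDGFC* by 1.47 (SE 0.09), but *PDGFC* had a change of 0.04 against the DMSO arrays. In the Notch pathway, in which ligands on 1 cell activate receptors on the next, 14 of 31 members rose and 5 fell (8 with median centring). The ligands *JAG1* and *JAG2* rose by 1.28 and 1.29, and the target genes *HES6* and *HEY1* by 2.97 (SE 0.24) and 1.45 (SE 0.14). The coactivators *MAML2* and *MAML3* fell by 1.71 (SE 0.17) and 1.54 (SE 0.23), the latter by 0.77 against DMSO.

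Guidance molecules, which steer axons and also set cell spacing in other tissues, held large changes in both directions. Of 56 tested members 22 rose and 11 fell, 13 and 9 of them at least 2-fold. Of the risers 1 had an untreated mean under the filter on dim signals, and among the other 55 members 21 rose and 11 fell. *SEMA3G* went from 147, 126 and 129 to 1043, 1027 and 1152. Its relatives went down: *SEMA3A* had 942, 1205 and 1192 untreated and 229, 179 and 181 with doxorubicin (a change of -2.41, or -0.72 against DMSO), and *SEMA3E* fell by 2.87 (SE 0.22). *PLXNC1*, a semaphorin receptor, rose by 2.27 (SE 0.12). Netrin *NTN4* rose by 2.12 (SE 0.10; 1.12 against DMSO) and the ephrin receptor *EPHA2* went from 2768, 2685 and 2475 to 11058, 11508 and 11482. The ephrin *EFNB3* had 1084, 1104 and 1000 untreated and 61.7, 79.2 and 103 with doxorubicin, and *EPHA5* fell by 2.25 (SE 0.21). In the tight junction list 4 of 22 tested genes rose and 10 fell. Its members *CLDN1* and *OCLN*, which encode partner proteins of the same seal, moved in opposite directions. *CLDN1* went from 648, 502 and 455 to 4970, 4528 and 4428, while *OCLN* went from 3023, 2538 and 2764 to 399, 489 and 464. Of 45 proteoglycan and heparan sulfate genes 20 rose and 11 fell, with *SULF2*, which edits heparan sulfate, at 2.54 (SE 0.17) and *SDC2*, a syndecan, at -1.47 (SE 0.10).

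A run of neighbouring protocadherin beta genes fell together. These genes lie side by side on chromosome 5, have no introns in their coding part, and give neurons their combinatorial surface code. Of 12 tested members, 1 of them a pseudogene, 11 fell and none rose, by 0.82 to 2.57, and the doxorubicin arrays lay below the untreated arrays in the same number. *PCDHB5* had 2301, 2478 and 1791 untreated and 536, 488 and 540 with doxorubicin. *PCDHB2* went from 1115, 1111 and 1233 to 597, 652 and 696, and *PCDHB15*, at 79.5, 56.0 and 65.3 against 52.0, 72.3 and 15.5, overlapped and was not called. Against the DMSO arrays 10 of the 12 were lower. Nutlin-3 changes in the family ranged from -0.52 to 0.29, with 1 called. The members are related in sequence and 6 of the 12 probe sets are of types that can bind relatives, so values of single members are uncertain. Outside this cluster *PCDH8* rose by 3.14 (SE 0.25) and *PCDH7* went from 562, 734 and 592 to 4863, 4702 and 4407.

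Metallothioneins, small cysteine-rich proteins that bind zinc and copper and are raised by metals, glucocorticoids and oxidants, also fell as a neighbouring family. Of 7 tested members 6 fell, and *MT3*, the form known from brain, had a change of 0.44 and was not called. *MT1H* had 13048, 14630 and 13742 untreated and 4160, 3504 and 4666 with doxorubicin. *MT2A* had 27657, 29477 and 30304 and then 12798, 14459 and 15941. *MT1G* went from 7983, 10846 and 8545 to 2352, 3379 and 2951. The arrays of the groups do not overlap for any of the 6, whose changes lay between -1.75 and -0.95. With nutlin-3 all 7 had values above 0, from 0.26 to 0.68, and 5 were called, so the difference between agents was called for 6, at -2.43 (SE 0.14) for *MT1H*. Of their 7 probe sets 6 are of types that can bind relatives, and the members are closely related in sequence. In the wider list of metal transporters and metallothioneins 8 of 38 rose and 14 fell, the 6 metallothioneins among them. *SLC30A1*, the zinc exporter of the plasma membrane, rose from 7455, 5952 and 6393 to 14488, 16115 and 15121. *HMOX1*, heme oxygenase, rose by 1.34 (SE 0.11). *MTF1*, the factor that reads zinc, had a change of 0.09 and was not called.

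The promoters of the 3 metallothionein genes in the RefSeq table (GRCh38.p14) are shown because the family fell together and their control by metal response elements is well known. Each stretch is the 250 bases before the gene start, on the plus strand, and capitals mark the core, searched as TGCGCNC and TGCACNC on both strands. The windows are chr16:56669564-56669813, chr16:56682220-56682469 and chr16:56608334-56608583.
MT1H: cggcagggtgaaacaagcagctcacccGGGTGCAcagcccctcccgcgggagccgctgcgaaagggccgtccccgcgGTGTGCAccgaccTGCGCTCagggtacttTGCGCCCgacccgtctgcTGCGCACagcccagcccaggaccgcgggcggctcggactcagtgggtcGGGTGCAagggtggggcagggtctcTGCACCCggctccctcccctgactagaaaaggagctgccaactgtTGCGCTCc
MT1X: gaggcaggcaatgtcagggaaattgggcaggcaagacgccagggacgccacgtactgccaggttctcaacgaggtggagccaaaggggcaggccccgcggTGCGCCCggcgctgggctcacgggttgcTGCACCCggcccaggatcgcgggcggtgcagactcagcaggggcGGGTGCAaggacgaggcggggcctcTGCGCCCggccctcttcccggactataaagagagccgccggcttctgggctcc
MT2A: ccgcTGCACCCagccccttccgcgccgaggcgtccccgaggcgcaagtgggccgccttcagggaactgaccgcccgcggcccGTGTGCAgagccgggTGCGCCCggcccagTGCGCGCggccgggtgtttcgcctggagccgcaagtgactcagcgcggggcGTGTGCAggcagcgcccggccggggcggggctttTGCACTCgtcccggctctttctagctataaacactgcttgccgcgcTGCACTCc
They hold 8, 4 and 7 cores. In the window from 250 bases before to 50 after the start, the G form occurs in 30.4% of the promoters of genes tested and the A form in 11.7%, and both occur in all 3 of these promoters. The motif was chosen after the values were seen, and a match is a description of the letters.

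Transcripts of the machinery that reads genes did not move as 1 block. Of 12 RNA polymerase II subunits 5 rose and 5 fell (3 with the mean of all probe sets). *POLR2A*, the largest catalytic subunit, had 471, 447 and 348 untreated and 1471, 1740 and 1286 with doxorubicin, while its nutlin-3 change of -0.18 was not called. *POLR2H* went from 3362, 3810 and 3378 to 6532, 7364 and 7894, and *POLR2E* from 2687, 3304 and 2784 to 1386, 1473 and 1622. The general factor *GTF2B*, which places the polymerase at the start, rose by 1.60 (SE 0.11), and *HEXIM1*, which holds the elongation kinase P-TEFb inactive, by 1.15 (SE 0.08). *CDC73*, a subunit of the elongation complex PAF1, fell from 664, 839 and 613 to 200, 240 and 223. In mRNA decay 20 of 37 genes fell and 6 rose (3 with median centring), with *EXOSC8*, a subunit of the RNA exosome, at -1.32 (SE 0.09) and *LSM2* at -1.13 (SE 0.15).

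Most genes that charge tRNAs fell with doxorubicin and not with nutlin-3. Aminoacyl-tRNA synthetases join each amino acid to its tRNA, and several are raised by the factor ATF4 when amino acids are short. Of 18 tested cytosolic members 13 fell, 5 of them at least 2-fold, and 2 rose, with a median of -0.54. *EPRS1*, which charges glutamate and proline, had 11284, 8774 and 8796 untreated and 1582, 3076 and 1188 with doxorubicin, a change of -2.40 that was -1.51 against the DMSO arrays. *FARSB*, for phenylalanine, went from 2756, 3194 and 3217 to 959, 961 and 1293, and *YARS1*, for tyrosine, from 3803, 4531 and 4130 to 1180, 1819 and 1554. Every doxorubicin array of these lies below every untreated array. *AARS1* fell by 1.16 (SE 0.09) and *IARS1* by 0.89 (SE 0.08). *SARS1* and *HARS1* rose by 0.38 and 0.31, and neither was called with median centring or against the DMSO arrays. With nutlin-3 the median was 0.02, with 2 rising and 1 falling. The difference between agents was called lower with doxorubicin for 13 of 18.

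The stretches below carry the amino acid response element core TGATGNAA, the sequence bound by ATF4 and C/EBP dimers, in 2 synthetase promoters. The core lies before the gene start, in capitals, here as its reverse complement, and both genes lie on the minus strand. They come from RefSeq (GRCh38.p14), chr16:70289660-70289719 for *AARS1* and chr9:92293698-92293736 for *IARS1*.
AARS1: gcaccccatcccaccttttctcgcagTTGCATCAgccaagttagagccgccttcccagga
IARS1: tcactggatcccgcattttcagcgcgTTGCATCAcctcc
The core, on either strand, was in 5 of the 15 synthetase promoters in the table (33.3%), in 1.90% of promoters of genes tested and in 3.67% of all promoters. It too was chosen after the values were seen.

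In lists of amino acid and nucleotide metabolism, which hold synthetic and degrading enzymes together, falls outnumbered rises. Of 41 genes of serine, glycine, folate and branched-chain metabolism 22 fell, 9 of them at least 2-fold, and 10 rose. *BCAT1*, which transaminates branched-chain amino acids, had 4412, 5415 and 5058 untreated and 373, 326 and 367 with doxorubicin. *PHGDH*, the entry to serine synthesis, went from 3615, 4170 and 3269 to 895, 1222 and 1341, and *PSAT1*, the next step, from 4896, 5472 and 6106 to 2014, 1808 and 2200. The highest doxorubicin array is below the lowest untreated array in all 3. *SAT1*, which breaks down polyamines, had 410, 505 and 376 and then 3984, 4857 and 4527, and *PRODH*, which degrades proline, rose by 1.36 (SE 0.26). In the test of the difference 20 of the 41 were lower with doxorubicin than with nutlin-3. Of 38 genes of purine and pyrimidine metabolism 19 fell and 10 rose (5 with median centring). *PFAS* and *GART*, enzymes of purine synthesis, fell by 2.01 (SE 0.15) and 1.10 (SE 0.09). *PNP* and *ADA*, which act in purine salvage and breakdown, rose by 1.86 (SE 0.10) and 1.72 (SE 0.12).

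Further enzymes rose by amounts that nutlin-3 did not match. *IDH2*, the mitochondrial isocitrate dehydrogenase, had 540, 628 and 471 untreated and 2632, 2730 and 3228 with doxorubicin. *PFKFB4*, which sets the regulator of phosphofructokinase, went from 458, 384 and 429 to 2082, 1993 and 1867. Both were lower with nutlin-3 than in DMSO, by 0.74 and 0.55, so the differences between agents were 3.10 (SE 0.17) and 2.74 (SE 0.22). Peroxisome genes fell in 14 of 30 cases and rose in 4 (2 with median centring), with the assembly factor *PEX2* at -1.28 (SE 0.09) and the phytanate hydroxylase *PHYH* at 1.89 (SE 0.11).

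Rises outnumbered falls among sphingolipid, phospholipid and lysosome genes. In a further lipid list, of fatty acid oxidation, lipases and lipid droplets, 15 of 46 rose and 10 fell, near the shares of all genes. Of 57 genes of sphingolipid and phospholipid metabolism 29 rose, 12 of them at least 2-fold, and 11 fell. Of the 57, 2 had an untreated mean under the filter on dim signals, and both were called higher. Among the other 55, 27 rose and 11 fell. *SPHK1*, which makes the lipid signal sphingosine phosphate, had 206, 231 and 222 untreated and 1133, 1271 and 1189 with doxorubicin. *ACER2*, a ceramidase of the Golgi, went from 197, 176 and 106 to 1863, 1755 and 1534, and *CERS5*, a ceramide synthase, from 1880, 1873 and 1487 to 5137, 5553 and 5444. *LPCAT1*, which remodels phosphatidylcholine, fell by 0.99 (SE 0.10). With nutlin-3, 7 of the list rose and 11 fell, and 25 of the 57 were higher with doxorubicin in the test of the difference. Of 62 lysosome genes 34 rose and 4 fell (7 with median centring), and against the DMSO arrays 39 rose and 10 fell. *LAMP3* rose by 2.37 (SE 0.17), *CTSL*, cathepsin L, from 4552, 4280 and 3834 to 16114, 14635 and 14371, and *CTSC*, cathepsin C, fell by 1.00 (SE 0.12).

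Most cohesin and condensin genes, which loop and compact chromosomes, fell. Of 28 tested members 20 fell, 6 of them at least 2-fold, and 1 rose, with a median of -0.44 (3 rose against the DMSO arrays or without untreated array 1). *STAG1*, a cohesin subunit, had 1764, 1878 and 1647 untreated and 304, 376 and 366 with doxorubicin. *NIPBL*, the cohesin loader, went from 4634, 4234 and 4596 to 1514, 1535 and 1667, and *NCAPH*, a condensin subunit, from 3454, 3479 and 3348 to 1221, 1208 and 1483. The groups do not overlap in these. Nutlin-3 also lowered 20 members and had a median of -0.63, but not by the same sizes. *NIPBL* had a nutlin-3 change of -0.07, and *NCAPG*, which had 0.02 with doxorubicin, fell by 1.09 with nutlin-3. In the test of the difference 8 members were higher and 9 lower with doxorubicin.

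The cell cycle homology element TTTGAA, a site of the DREAM complex, is shown in the promoters of 4 of these genes, 3 that fell and *NCAPG*, which was not called. Capitals mark the core as written or as its reverse complement. The RefSeq windows (GRCh38.p14, plus strand) are chr10:110567517-110567576, chr3:160399548-160399607, chr12:6493930-6493989 and chr4:17810917-17810976.
SMC3: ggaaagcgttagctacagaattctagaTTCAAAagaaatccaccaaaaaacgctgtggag
SMC4: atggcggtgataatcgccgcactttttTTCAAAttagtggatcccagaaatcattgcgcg
NCAPD2: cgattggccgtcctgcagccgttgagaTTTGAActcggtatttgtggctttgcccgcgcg
NCAPG: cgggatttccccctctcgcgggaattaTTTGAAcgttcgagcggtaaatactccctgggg
The core, on either strand, was in 8 of the 23 promoters of this list in the table (34.8%), in 10.2% of promoters of genes tested, and in 15.4% of all promoters. *SMC3* fell by 0.48 (SE 0.11), *SMC4* by 0.88 (SE 0.07) and *NCAPD2* by 1.17 (SE 0.10).

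Other chromatin and repair genes fell more often than they rose, with doxorubicin and with nutlin-3. With nutlin-3, 17 of the remodelling and DNA methylation genes below fell and 0 rose. In the lamina and pore list 25 fell and 1 rose with nutlin-3, and in the end joining list 11 fell and 1 rose. Of 51 chromatin remodelling and DNA methylation genes 29 fell and 7 rose (3 with median centring), with *SMARCA4*, the BRG1 ATPase, from 3812, 3576 and 3822 to 1778, 1955 and 1938, and *ARID1B* at -1.18 (SE 0.09; -0.58 against DMSO). Of 39 genes of the nuclear lamina and pore 18 fell and 4 rose (2 with median centring or without untreated array 2). *LMNB1*, lamin B1, had 8892, 9982 and 11574 untreated and 4439, 4041 and 3941 with doxorubicin, and it also fell by 1.52 with nutlin-3. In end joining and break signalling 16 of 31 genes fell and 3 rose (5 with other choices of probe set). *H2AX*, the histone variant marked at breaks, went from 8775, 10180 and 10014 to 3103, 3713 and 3682. *LIG4*, the ligase of end joining, fell by 0.94 (SE 0.16), with 443, 717 and 548 untreated and 352, 251 and 256 with doxorubicin.

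Surface molecules read by lymphocytes mostly rose. Natural killer cells recognise stressed cells through ligands of the receptor NKG2D, and B7 proteins tune T cells. Of 24 tested ligands and checkpoint molecules 18 rose, 9 of them at least 2-fold, and 1 fell, with a median of 0.70. Against the DMSO arrays 15 rose and none fell. *ULBP2*, an NKG2D ligand, had 1101, 1111 and 1106 untreated and 7582, 6657 and 7881 with doxorubicin. *ICOSLG*, a costimulator of T cells, went from 164, 86.4 and 89.0 to 1041, 1011 and 742, and *NECTIN4*, an adhesion molecule, from 211, 161 and 183 to 889, 1202 and 809. No doxorubicin array of the 3 genes comes near the untreated range. *CD47*, the signal that holds back phagocytes, rose by 1.09 (SE 0.10), *HLA-E*, which engages inhibitory receptors, by 1.17 (SE 0.10), and *CD274*, which encodes PD-L1, by 0.83 (SE 0.15), although the last was 0.21 and not called against the DMSO arrays. *ULBP3* fell by 0.84 (SE 0.27), a call lost against the DMSO arrays and without doxorubicin array 3. With nutlin-3, 8 of the 24 rose and 1 fell, and 13 were higher with doxorubicin in the test of the difference. Against DMSO the changes of *ULBP2* and *ICOSLG* were 1.83 and 1.99, where against untreated arrays they were 2.72 and 2.91. Between agents *ULBP2* differed by 2.41 (SE 0.13) and *NECTIN4* by -0.58 (SE 0.21).

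**Figure D4:**
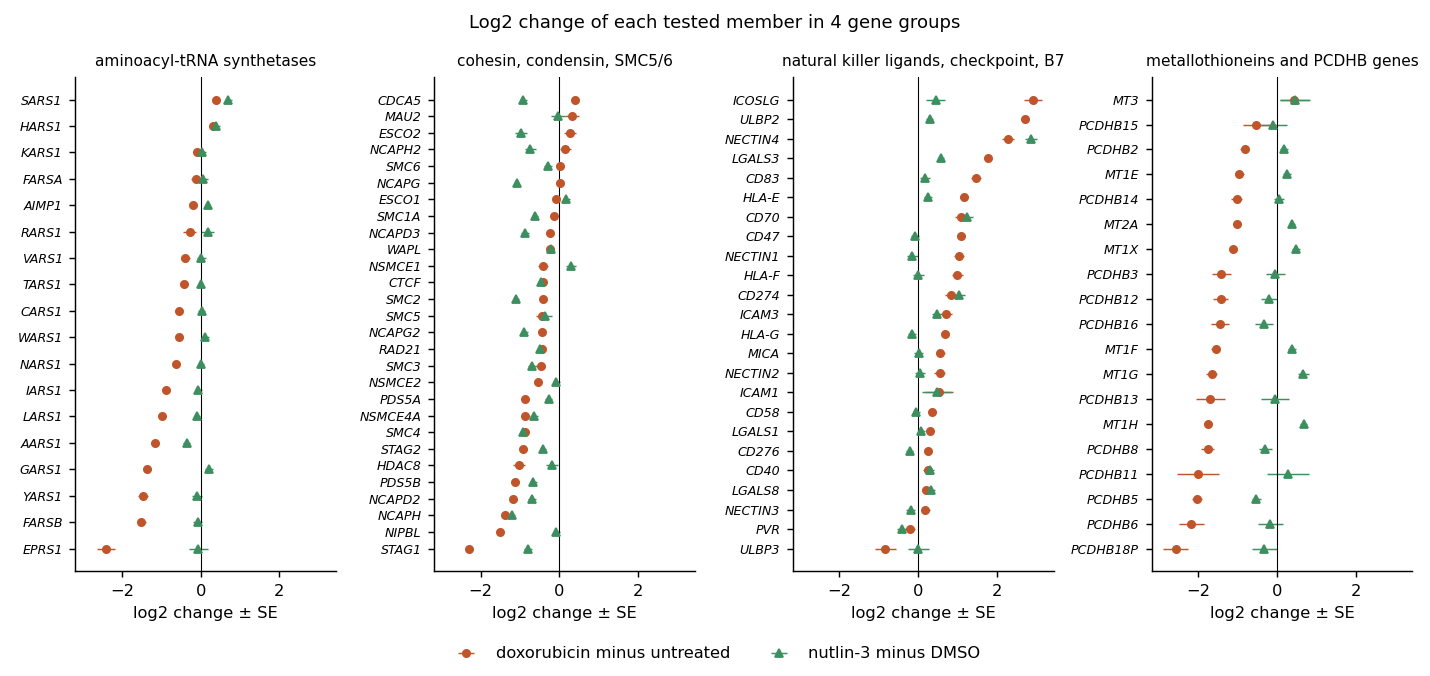
Log2 change with its SE for each tested member of 4 gene groups, with doxorubicin against untreated arrays (circles) and with nutlin-3 against DMSO arrays (triangles). Synthetases, metallothioneins and PCDHB genes lie below 0 with doxorubicin in most cases and near or above 0 with nutlin-3, while most cohesin and condensin genes lie below 0 with both.

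Innate immune genes rose in part. Of 41 tested genes of complement and innate sensing 21 rose and 4 fell (8 with median centring or against the DMSO arrays). *TREM2*, a lipid receptor of macrophages and microglia, had 128, 36.8 and 82.2 untreated and 2809, 2178 and 2500 with doxorubicin, while *TYROBP*, its signalling partner, was under the filter on dim signals. *C1S*, a serine protease of the classical complement pathway, went from 102, 111 and 69.8 to 1584, 1281 and 1233, while its partner *C1R* had a change of 0.17 and was not called. *C3*, the central complement protein, rose by 2.08 (SE 0.27) and *NLRX1*, a mitochondrial sensor, by 2.24 (SE 0.17). *TLR6* fell by 1.58 (SE 0.42). The summed leukocyte markers given above were higher on the same arrays, with *PTPRC*, *CD14* and *TYROBP* under the filter, and the part of other cells was not tested.

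Epidermal genes changed in both directions. These genes build the cornified envelope of skin, and *PADI* enzymes turn arginine into citrulline in its proteins. Of 36 tested members 18 rose, 13 of them at least 2-fold, and 6 fell, with a median of 0.49. Only 36 of the 65 members on the array passed the filter on dim signals, which is set on the mean over all 12 arrays. Of these, 6, all called higher, had an untreated mean under it. They passed through higher signals on other arrays, so their rises are partly set by the filter. Among the other 30, 12 rose and 6 fell. With the stricter 60th percentile filter 10 of the list rose. *PADI4* had 25, 16.2 and 2.68 untreated and 2867, 2945 and 3086 with doxorubicin, and *PADI3* had 12.9, 11.6 and 67.7 and then 659, 650 and 612. The untreated means of both are under the filter, so the size of their log2 changes rests on the added 16. *PADI1* and *PADI2*, at 0.73 and 0.24, were not called. *ABCA12*, the lipid transporter of keratinocytes, rose by 2.85 (SE 0.27). *SCEL*, an envelope protein, went from 393, 336 and 330 to 24.2, 6.12 and 4.27, and *TGM1*, the crosslinking enzyme, fell by 1.72 (SE 0.32). Involucrin (*IVL*) and filaggrin (*FLG*), which define late differentiation, were under the filter. The epithelial keratin *KRT14* fell by 1.66 against untreated arrays but had 0.13 against the DMSO arrays.

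The AP-1 core TGACTCA, bound by FOS and JUN dimers, is shown before the starts of 4 members, in capitals as written or as its reverse complement, because *PADI4* and *SCEL*, at opposite ends of the list, both hold it. The RefSeq windows (GRCh38.p14) are chr1:17308117-17308175, chr13:77535631-77535689 and chr18:63970027-63970080 on the plus strand and chr1:153565864-153565922 on the minus strand.
PADI4: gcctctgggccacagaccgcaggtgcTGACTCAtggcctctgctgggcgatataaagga
SCEL: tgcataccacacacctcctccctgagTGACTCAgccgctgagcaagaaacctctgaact
SERPINB8: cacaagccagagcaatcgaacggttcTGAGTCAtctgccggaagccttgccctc
S100A2: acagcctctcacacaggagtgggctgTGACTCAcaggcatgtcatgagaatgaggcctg
The core, on either strand, was in 6 of the 25 promoters of the list in the table (24.0%), in 3.26% of promoters of genes tested and in 4.92% of all promoters. *SERPINB8*, a protease inhibitor, rose by 1.30 and *S100A2*, a calcium-binding protein of keratinocytes, by 0.55, and the other members with the core, *SPRR1A* at -0.16 and *SBSN* at 0.12, were not called.

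The medians of the lists of 12 or more tested genes set these groups side by side. With doxorubicin the lowest were very long genes at -1.12, aminoacyl-tRNA synthetases at -0.54, and cohesin and condensin at -0.44. The lists were chosen with earlier results of these data known. By length alone, the 328 tested genes of 400 kb or more had a median of -0.60. Apart from the p53 reference list, the highest were natural killer ligands at 0.70, short-lived regulators at 0.66 and epidermal genes at 0.49. The epidermal list holds 6 genes with an untreated mean under the filter on dim signals, and the short-lived list 1. All of these were called higher, so the 2 medians are partly set by the filter. Lists whose counts against untreated arrays lay near the shares of all genes included Mediator, with 6 of 29 rising and 8 falling, and Wnt genes, with 12 of 47 in each direction. Another was mitochondrial ribosomal proteins, with 16 of 64 rising and 21 falling (7 and 27 with median centring). In the test of the difference from nutlin-3, 5 of these 64 were higher with doxorubicin and 23 lower. Of the 47 Wnt genes 17 were higher and 7 lower, and of all genes 21.8% and 17.7%.

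**Figure D5:**
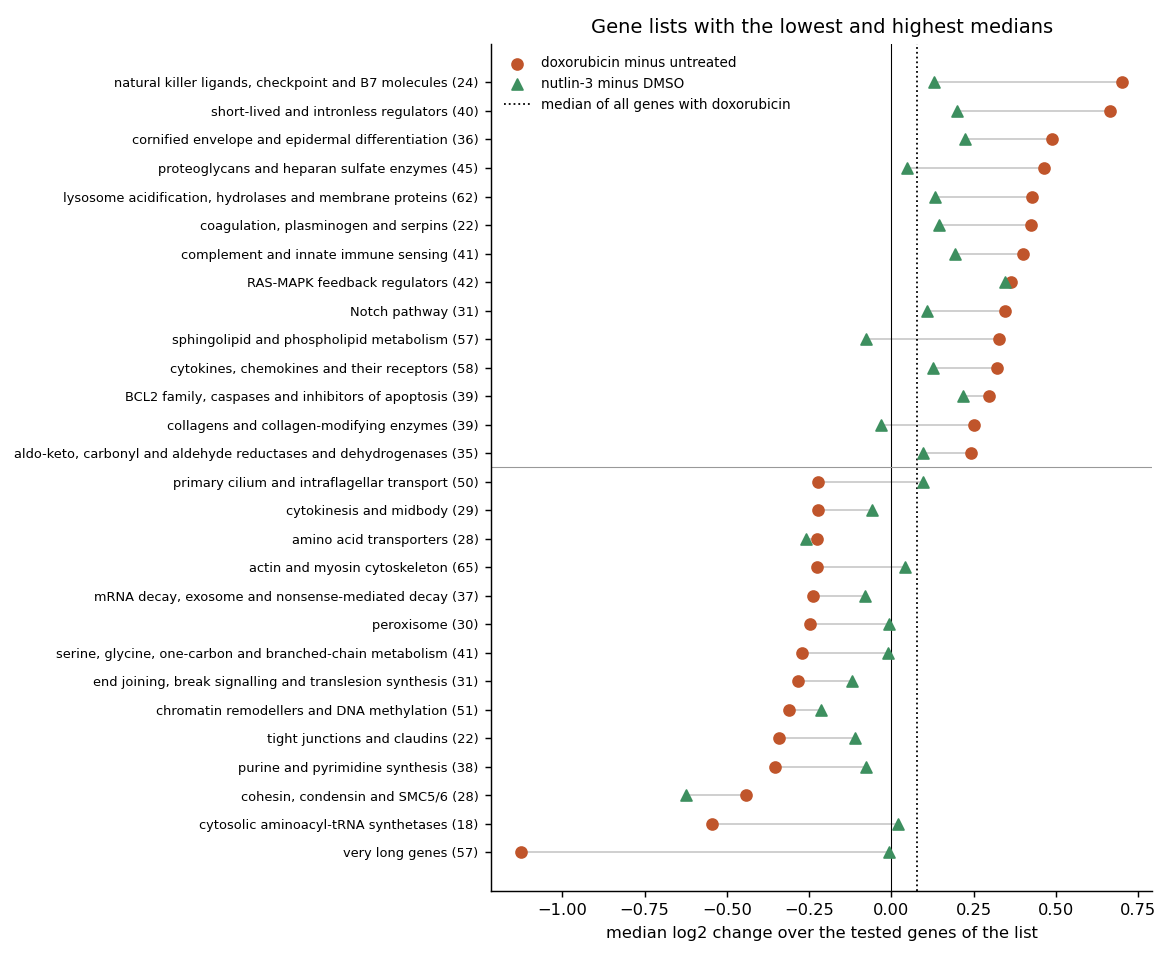
Median log2 change over the tested genes of the 14 lists with the lowest and the 14 with the highest doxorubicin medians among lists of 12 or more tested genes (number tested in parentheses), with doxorubicin (circles) and nutlin-3 (triangles). The dotted line is the doxorubicin median of all genes, 0.08. Some lists hold genes with an untreated mean under the filter on dim signals, of which the epidermal list has 6.

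The test of the difference between the agents, whose comparisons share no array, called 5396 genes (39.5%), 2982 higher with doxorubicin (21.8%) and 2414 lower (17.7%). Some genes with large doxorubicin changes had nutlin-3 changes near 0. Those that rose were *SHISA2*, with a difference of 4.46 (SE 0.18), *ADCYAP1R1*, with 3.70 (SE 0.26), and *CRISPLD2*, with 3.76 (SE 0.22). *GCH1*, the first enzyme of tetrahydrobiopterin synthesis, had 674, 686 and 527 untreated and 5908, 6192 and 6672 with doxorubicin, and *ADM*, the vasodilator adrenomedullin, 530, 469 and 593 and then 5180, 4457 and 5443. *CDO1*, which oxidises cysteine, went from 228, 214 and 217 to 1805, 1780 and 2123. Their nutlin-3 changes were 0.17, 0.25 and -0.17, none called. On the falling side *GPC6*, *BCAT1*, *TENM2* and *INPP4B* led, with differences of -4.10 (SE 0.16), -3.50 (SE 0.13), -3.52 (SE 0.15) and -3.08 (SE 0.20). *LRBA*, a vesicle trafficking protein, fell from 1775, 1942 and 1988 to 350, 241 and 339, and *IL31RA*, a cytokine receptor, from 1559, 1288 and 1325 to 125, 368 and 243, with nutlin-3 changes of -0.20 and 0.03.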

How the data were processed

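Total RNA of 12 U2OS samples was hybridised to Affymetrix Human Genome U133 Plus 2.0 arrays, which probe transcripts near their 3' ends. The deposited values are linear signal intensities made by the authors with MAS5, per the submitters' processing notes; array medians of the deposited values lay between 79.6 and 113.55. Each probe set is 1 value per array, with no count of molecules, so precision is limited by the 3 arrays a group.

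The values were read as log2(signal + 16). Probe sets whose mean was under the 40th percentile (a signal of 49.3) were left out, and each gene was given the probe set with the highest mean signal among those with 1 symbol, which left 13673 genes. Of the non-control probe sets 41091 had 1 symbol, 1801 several and 11721 were not listed, and 41037 of the first matched RefSeq (GRCh38.p14), from which symbols were updated. Linear models with an intensity trend were fitted over all 12 arrays with limma 3.58.1 in R 4.3.3 after a test on simulated data, and p-values were adjusted over all genes by Benjamini-Hochberg. Contrasts were doxorubicin minus untreated, nutlin-3 minus DMSO, their difference, and doxorubicin minus DMSO. Lists are described by counts and medians, with no set test. Some lists hold genes with an untreated mean under the filter, and the rises of such genes are partly set by it. Alternatives were the scaling, pseudocounts of 1 and 64, the filter, the choice of probe set, array weights, the trend, the arrays fitted, the control, the replicate block, the threshold, and each array left out.

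Genes were named as members of fixed lists, by the largest log2 and signal changes, and by large doxorubicin changes with little change by nutlin-3. For the largest log2 and signal changes only called genes whose doxorubicin and untreated arrays do not overlap were considered. Other list members, among them the genes whose promoters are shown for a motif, were picked after their values were seen. The members and lists were chosen with earlier results of these data known. The p53 transcript is not analysed here.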

Additional observations from a re-analysis of the deposited data

How the results depend on the processing

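Requiring a 2-fold change left 2257 genes, 1373 higher and 884 lower. Centring each array on its median lowered the higher calls to 2733 genes and 5564 probe sets, and the genes higher with doxorubicin than with nutlin-3 to 1780. The other alternatives kept each total within 1.5 times. Leaving out 1 array gave 6979 to 7319 genes (3803 to 3888 higher, 3176 to 3431 lower), 13774 to 15152 probe sets, 4940 to 5331 differences between agents, and *ACTB* ratio differences of 1.35 to 1.91. Against the DMSO arrays *HARS1* had -0.20, *KRT14* 0.13 and *PDGFC* 0.041, and the mean of all its probe sets gave *COL1A1* -0.16. Each is the reverse of the gene's sign in the main comparison, and the cause was not tested. In 134 of 6970 genes with several probe sets, probe sets were called in both directions, *RASAL2* among them. The replicate block gave 7824 genes and changed the call of no named gene. Arrays with the same number had deviations correlated at -0.02, -0.021 and -0.089, so the numbers were not taken as pairs.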
